A study of Mus musculus with 12 samples.

Results

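The 10 genes described here encode the 5 subunits of the transcription factor NF-kB (Nfkb1, Nfkb2, Rel, Rela and Relb) and 5 regulators of it that its own activity is known to induce (Nfkbia, Nfkbie, Nfkbiz, Bcl3 and Tnfaip3). They were chosen by name and matched exactly to the gene names of the count files, where each was found once among 55335 genes. The RNA came from hindlimb muscle stem cells (MuSCs), sorted by flow cytometry out of Pax7-ZsGreen mice, 3 to 6 months old, in which the Pax7 promoter drives a green fluorescent reporter. F cells went from the sorter straight into TRIzol. 2d-U and 5d-U cells were grown without compression for 2 and 5 days on plastic coated with Matrigel and fibronectin, in medium with serum and FGF. 2+3d-C cells were grown for 2 days in the same way and then for 3 days under a silicone device whose pillars set the height left to the cells. Each group had 3 libraries, and all groups carried the reporter. Neither the number of mice behind a library nor the libraries that share a sort are given, so the p-values measure the spread between libraries, which may in part be technical.

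NF-kB works as dimers of subunits that bind short kB motifs in DNA. Inhibitors of the IkB family hold the dimers in the cytoplasm until signals from receptors for TNF, IL-1 or microbial products lead an IkB kinase to mark them for destruction. Freed dimers then switch on inflammatory genes and also the genes of their own inhibitors, which closes a negative feedback loop. A second, slower route processes the Nfkb2 product p100 to p52, the partner of RelB. In muscle, NF-kB is known for its activity in wasting and for its changing role as myoblasts differentiate.

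Reads counted on genes ranged from 12540745 to 62424851 per library, and both extremes were 2+3d-C libraries. In 4 libraries reads also fell on gene families that MuSCs should not express, such as olfactory receptors: 5d-U replicates 1 and 6 and F replicates 4 and 5 had 0.627 to 7.12 such reads per kb of exon, against at most 0.219 in the other 8. At that density such reads would make up 35.6% of the Rel count of 5d-U replicate 1, 19.7% and 11.9% of the Tnfaip3 counts of 5d-U replicates 1 and 6, and less than 7% of every other count of the 10 genes. Markers of MuSCs (8 genes, with Myod1 the highest) summed to 3193 to 5370 RPKM (reads per kilobase of exon, scaled to library size) for 2+3d-C and to 487 to 1058 for F, with 785 to 940 for 2d-U and 764 to 1380 for 5d-U. Myod1 alone made up most of these sums, its mean being 3186 RPKM under compression (2+3d-C) against 944 (5d-U), 655 (2d-U) and 489 (F). By immunostaining of protein, the paper scored cells with MyoD as progenitors or committed cells, and Pax7 without MyoD as the stem cell state. It reported a larger fraction in the stem cell state, and smaller fractions of both MyoD classes, in 2+3d-C than in 2d-U and 5d-U. Bulk RNA and protein per cell are different measures. The sums mainly follow Myod1 RNA and do not measure the stem cell state. Pax7 itself was read in every group, with 10.3 to 15.1 RPKM in 2+3d-C and 1.52 to 3.68 in F.

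Markers of other cell types were not equal between groups, and this bears on every comparison below. The summed level of 8 endothelial markers was highest in F, at 270 to 443 RPKM, and next in 2+3d-C, at 60.8 to 119, while 2d-U had 0.486 to 1.53 and 5d-U 0.378 to 6.21. 8 fibroadipogenic markers followed the same order, with sums of 634 to 1751 RPKM (F), 230 to 412 (2+3d-C), 28.6 to 33.9 (2d-U) and 6.52 to 34.9 (5d-U). The members of that list differed. Dpt was the highest in 2+3d-C, with a mean of 161 RPKM against 71.1 in F. Pdgfra (0.294) and Pi16 (0.105) had 2+3d-C means near those of 5d-U (0.172 and 0.0803), against 9.20 and 17.0 in F. Cd34 averaged 27.6 in 2+3d-C and 29.4 in 2d-U. The means of Ly6a, Dcn, Col1a1 and Lum lay between F and both uncompressed groups. The 4 hemoglobin genes gave 186 to 853 RPKM in F, 31.2 to 413 in 2+3d-C and at most 0.517 in any 2d-U or 5d-U library. Immune markers (10 genes) reached 467 to 1368 RPKM in F and at most 1.05 in 2d-U, with 1.23 to 84.5 in 5d-U. They summed to 24.8 to 81.6 in 2+3d-C, where the leukocyte marker Ptprc, the macrophage marker Adgre1 and the T cell marker Cd3e had 0 reads in all 3 libraries. Others of the list were read there, with means of 26.2 RPKM for Lyz2, 11.6 for Cd74, 4.02 for Tyrobp and 3.06 for Cd68. Csf1r, Itgam and Cd79a averaged 0.052, 0.030 and 0.12. Lyz2, Cd74 and Tyrobp had 0 reads in every 2d-U library, and means of 24.4, 0.171 and 0.803 in 5d-U. The 5d-U libraries were uneven for Lyz2, from 0.212 to 72.6 RPKM (SD 41.8), against 3.96 to 53.4 in 2+3d-C. The 8 smooth muscle or pericyte markers had sums of 250 to 286 RPKM (F), 29.1 to 39.1 (2d-U), 23.2 to 330 (5d-U) and 141 to 199 (2+3d-C). For the 8 markers of mature myofibers the sums were 18.6 to 1652, 34.8 to 59.3, 108 to 2574 and 40.0 to 142 RPKM, in the same order. Notch3, in the smooth muscle or pericyte list, is also a receptor that the paper studied in MuSCs. It averaged 5.76 RPKM in F, 0.423 in 2d-U, 0.575 in 5d-U and 37.6 in 2+3d-C. Endothelial and hemoglobin transcripts and the fibroadipogenic sum, though not Pdgfra and Pi16 in 2+3d-C, were thus high where the 10 genes were high. So, by group mean, were Rgs5, Myh11, Kcnj8, Abcc9, Pdgfrb, Ckm, Myh4 and Pvalb, while Acta2, Acta1, Tnnt3 and Mylpf were not. The part of these markers in the results was not tested. In bulk RNA, fewer cells of a type and less RNA per cell cannot be told apart.

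Because NF-kB is known to act on several of these genes itself, the promoter windows of the 10 genes were searched for kB motifs. RefSeq windows (build GRCm38.p6, of which mm10 is the browser name, 250 bases before to 50 after a transcription start) were given for 7 of the 10 genes, as 10 windows, and not for Nfkb1, Relb and Nfkbiz. The kB consensus, a degenerate motif of 10 bases read on both strands, matched in 6 of these 7 genes (all but Rela), against 5.14% of all 27025 genes with a window. The sequence GGGACTTTCC, the original kB site of the immunoglobulin kappa enhancer and itself 1 form of the consensus, was found in Nfkb2 alone, against 0.174% of all genes. A looser pattern, GGG and CC with any 5 bases between them, matched in all 7 and in 53.5% of all genes. A match of letters is a description and was not tested as a binding site. Each of the 6 genes is represented by 1 or 2 of its matches, read in the direction of the gene, with the 10 bases of the match in capitals and up to 10 bases of the window on either side. Of the several matches of Nfkb2, the symmetric one and the kappa site were chosen.
Nfkb2, chr19:46304688-46304717, plus strand, 39 bases before the start: ggatcgtcacGGGAATTCCCcccctcgggg
Nfkb2, chr19:46305695-46305724, plus strand, 225 bases before another start: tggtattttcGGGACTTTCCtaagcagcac
Rel, chr11:23771042-23771071, minus strand, 92 bases before the start: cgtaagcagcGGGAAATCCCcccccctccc
Nfkbia, chr12:55492657-55492686, minus strand, 29 bases before the start: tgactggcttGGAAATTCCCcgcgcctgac
Nfkbie, chr17:45555584-45555613, plus strand, 106 bases before the start: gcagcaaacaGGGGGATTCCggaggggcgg
Bcl3, chr7:19822744-19822763, minus strand, 3 bases after the start: tcggcggcagGGGAAGTCCC
Tnfaip3, chr10:19015516-19015545, minus strand, 125 bases before the start: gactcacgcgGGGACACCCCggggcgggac
Tnfaip3, chr10:19015411-19015432, minus strand, 12 bases before the start: aatttccatcGGAAATCCCCct
The first Nfkb2 match reads the same on both strands.

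The subunits are described first, from the most to the least abundant by group mean in 2+3d-C. Rela (chr19:5637483-5648130, plus strand) encodes p65, the subunit that carries the main transactivation domain. It measured 156, 165 and 148 RPKM in the 3 F libraries and 442, 290 and 302 under compression (2+3d-C), but 37.1, 31.9 and 39.3 after 2 days uncompressed (2d-U) and 21.5, 14.7 and 14.9 after 5 (5d-U). No group overlapped another, with 2+3d-C highest and 5d-U lowest. Between 2+3d-C and 5d-U the log2 fold change was 4.34 ± 0.39 (SE, n = 3 and 3, edgeR adjusted p = 9.57e-06).

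Nfkb2 (chr19:46304320-46312385, plus strand) encodes p100, which is both an inhibitor and the precursor of p52. Its RPKM was 53.6, 51.9 and 54.8 (F), 30.1, 26.9 and 54.5 (2d-U), 18.6, 5.56 and 3.00 (5d-U) and 234, 102 and 156 (2+3d-C). The F libraries had a coefficient of variation (CV, SD over mean) of only 2.72%, while 2d-U replicate 3 reached the level of F. The rise in 2+3d-C over 5d-U was 4.18 ± 0.64 on the log2 scale (adjusted p = 0.000468). The exons of Nfkb2 overlap antisense genes, Psd and 4833438C02Rik, over 18.1% of their length. Reads were counted without regard to strand, so reads there could not be assigned by strand.

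Relb (chr7:19606217-19629438, minus strand) encodes the partner of p52 in the slower route and is itself a known NF-kB target. The 2+3d-C libraries had 125, 139 and 76.5 RPKM and the F libraries 52.5, 35.5 and 35.1, above 7.13, 5.99 and 6.52 for 2d-U and 5.79, 2.18 and 2.30 for 5d-U. As for Rela, no group overlapped another. 2+3d-C exceeded 5d-U by 5.05 ± 0.51 (log2, adjusted p = 2.08e-05).

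Nfkb1 (chr3:135584655-135691547, minus strand) encodes p105, the precursor of p50, with which p65 forms the classical dimer. F libraries gave 38.0, 19.2 and 20.9 RPKM, those of 2d-U 1.72, 2.51 and 2.90, those of 5d-U 2.63, 1.41 and 0.965, and compressed cells 70.3, 62.3 and 70.9. 2+3d-C had the narrowest spread of the 4 groups for this gene, a CV of 7.08%, and 2d-U and 5d-U overlapped. Its log2 fold change in 2+3d-C against 5d-U was 5.34 ± 0.52 (adjusted p = 1.52e-05).

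Rel (chr11:23736847-23770970, minus strand) encodes c-Rel, best known in lymphocytes, and was the scarcest subunit in every library. It reached 9.86, 4.16 and 8.92 RPKM in F and 8.80, 5.37 and 5.91 in 2+3d-C. The uncompressed cultures stayed at 0.276, 0.163 and 0.199 (2d-U) and 0.466, 0.252 and 0.452 (5d-U). F and 2+3d-C overlapped, as did 2d-U and 5d-U. The lowest count behind these values was 31 reads. 2+3d-C lay 4.10 ± 0.55 above 5d-U (log2, adjusted p = 0.000179).

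Of the IkB proteins that hold dimers in the cytoplasm, Nfkbia (chr12:55489410-55492647, minus strand) encodes IkBa, the fastest feedback inhibitor. It was the most abundant of the 10 genes per length of exon in each of the 12 libraries, with 1546, 1113 and 919.6 RPKM for F, 59.7, 67.4 and 149 for 2d-U, 149, 49.0 and 258 for 5d-U and 1574, 4641 and 1533 for 2+3d-C. F and 2+3d-C overlapped through F replicate 1, and replicate 5 stood far above the other 2+3d-C libraries. The rise over 5d-U was 4.08 ± 0.68 (log2, adjusted p = 0.000826). Nfkbie (chr17:45555703-45563169, plus strand), which encodes IkBe, measured 33.1, 20.3 and 18.5 RPKM (F), 3.98, 5.00 and 8.05 (2d-U), 5.43, 2.34 and 2.65 (5d-U) and 49.0, 41.9 and 16.9 (2+3d-C). Replicate 10 of 2+3d-C lay below every F library, and the change from 5d-U to 2+3d-C, 3.37 ± 0.56 (log2, adjusted p = 0.000776), was the smallest among the 10 genes.

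The atypical IkB proteins act in the nucleus as cofactors of NF-kB. Nfkbiz (chr16:55811375-55838899, minus strand) encodes IkBz, an inducible cofactor for Il6 and other secondary response genes. Its RPKM was 95.8, 72.7 and 85.8 for F and 149, 69.8 and 60.5 for 2+3d-C, against 1.91, 0.906 and 1.79 at 2 days and 2.97, 0.980 and 0.858 at 5 days without compression. The libraries thus formed 2 levels, with F overlapping 2+3d-C and 2d-U overlapping 5d-U. The difference between 2+3d-C and 5d-U was 5.86 ± 0.64 (log2, adjusted p = 3.49e-05). Bcl3 (chr7:19808462-19822770, minus strand) encodes a cofactor that binds p50 and p52 homodimers. The libraries held 36.1, 82.6 and 56.0 RPKM (F), 3.18, 4.61 and 8.80 (2d-U), 4.25, 0.479 and 3.50 (5d-U) and 61.4, 116 and 24.7 (2+3d-C), so the last group reached both above and below the range of F. 2+3d-C was 4.62 ± 0.81 above 5d-U (log2, adjusted p = 0.00118), the largest SE of the 10 genes. Its exons overlap the antisense gene Gm16175 over 6.51% of their length.

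Tnfaip3 (chr10:19000910-19015657, minus strand) encodes A20, an enzyme that edits ubiquitin chains and turns off signaling above the IkB kinase. F libraries had 60.6, 37.6 and 54.3 RPKM and compressed cells 89.8, 13.0 and 54.0, whereas 2d-U had 1.73, 1.21 and 1.55 and 5d-U 0.843, 0.425 and 0.257. 5d-U was the lowest group with no overlap, and 2+3d-C had the widest spread of the 10 genes, a CV of 73.6%. At 6.68 ± 0.74 (log2, adjusted p = 4.00e-05), it had the largest difference between 2+3d-C and 5d-U of the 10. The 2+3d-C libraries did not rank alike over the genes. Replicate 5, the shallowest, was the highest of the 3 for Relb, Nfkbia and Bcl3 and the lowest for Rela, Nfkb1, Nfkb2, Rel and Tnfaip3.

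**Figure D1:**
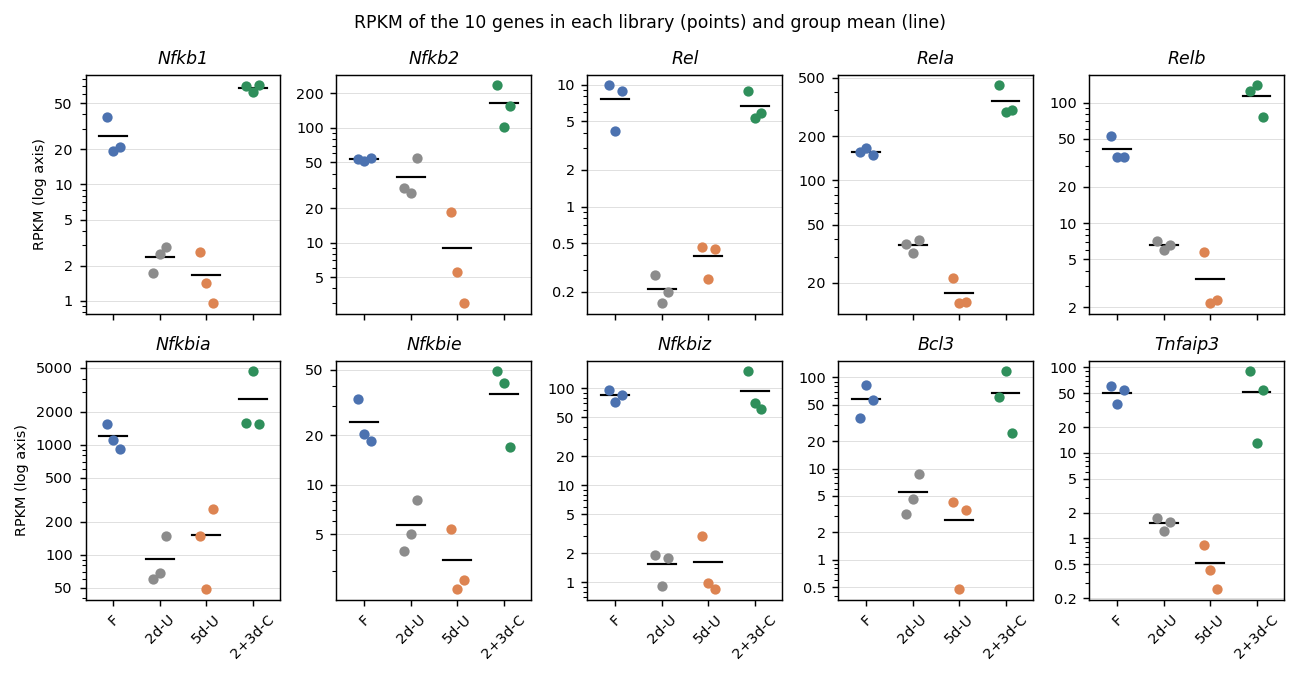
RPKM of each of the 10 genes (log axes, with a range of its own in each panel) in the 3 libraries of each of the 4 groups, as points, with the group mean as a line. In every panel F and 2+3d-C lie above 5d-U without overlap. For Tnfaip3, 5d-U stays between 0.257 and 0.843 while 2+3d-C runs from 13.0 to 89.8.

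The question of the compression design is how cells that spent the last 3 of 5 days compressed differ from cells uncompressed throughout. In 2+3d-C against 5d-U all 10 genes were higher, all 10 with an adjusted p under 0.05 and with no overlap between the libraries of both groups. Among the 22635 genes tested, 9.14% were called higher and 13.4% lower, and in 12.6% the 3 compressed libraries all exceeded the 3 of 5d-U. The 10 log2 fold changes ranged from 3.37 to 6.68 with a median of 4.48, beside a median of -1.05 over all tested genes. That background median moved with the processing, to -0.21 with the 2 groups alone, -0.24 after subtraction of silent-family reads and -2.02 with no filter on low counts. All 10 passed the filter on low counts, and each had at least 31 reads in every library. The 10 calls remained under each of 19 alternatives, among them each library left out in turn, with log2 fold changes between 3.07 and 7.24. One of these leaves out the 4 libraries with reads on silent families together, so that 5d-U holds 1 library, assumed to vary like the other groups. Endothelial markers (7 of 8 higher, 0 lower), hemoglobin genes (4 of 4 higher), smooth muscle or pericyte markers (6 of 8 higher, 0 lower) and fibroadipogenic markers (4 of 8 higher, 0 lower) moved with them. Of 10 immune markers, 1 was higher and 1 lower, and of 8 mature myofiber markers, 1 was higher and 3 lower. MuSC markers rose too (5 of 8 higher, 0 lower).

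Against 2d-U, the state from which compression began, all 10 genes were again called higher in 2+3d-C with no overlap of libraries. In this comparison 16.0% of tested genes were called higher and 8.63% lower, and in 18.1% the compressed libraries all exceeded those of 2d-U. With libraries scaled by size alone, the split over all genes moved from 3619 higher and 1954 lower to 2537 and 3139. The 10 fold changes ran from 2.14 ± 0.59 for Nfkb2 (adjusted p = 0.0167) to 5.92 ± 0.64 for Nfkbiz (adjusted p = 2.90e-05), with a median of 4.46 beside 0 over all genes. The call of Nfkb2 was lost without 2d-U replicate 1 (adjusted p = 0.0608), 2d-U replicate 2 (0.0671) or 2+3d-C replicate 4 (0.0554), and with libraries scaled by size alone (0.0938). Both comparisons use the same 2+3d-C libraries and are not independent of each other. In this comparison too, endothelial (8 of 8), hemoglobin (4 of 4), fibroadipogenic (7 of 8), smooth muscle or pericyte (6 of 8), myofiber (4 of 8) and immune markers (3 of 10) were called higher, and none of these lists had a gene called lower. MuSC markers were called higher as well (4 of 8, 0 lower).

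**Figure D2:**
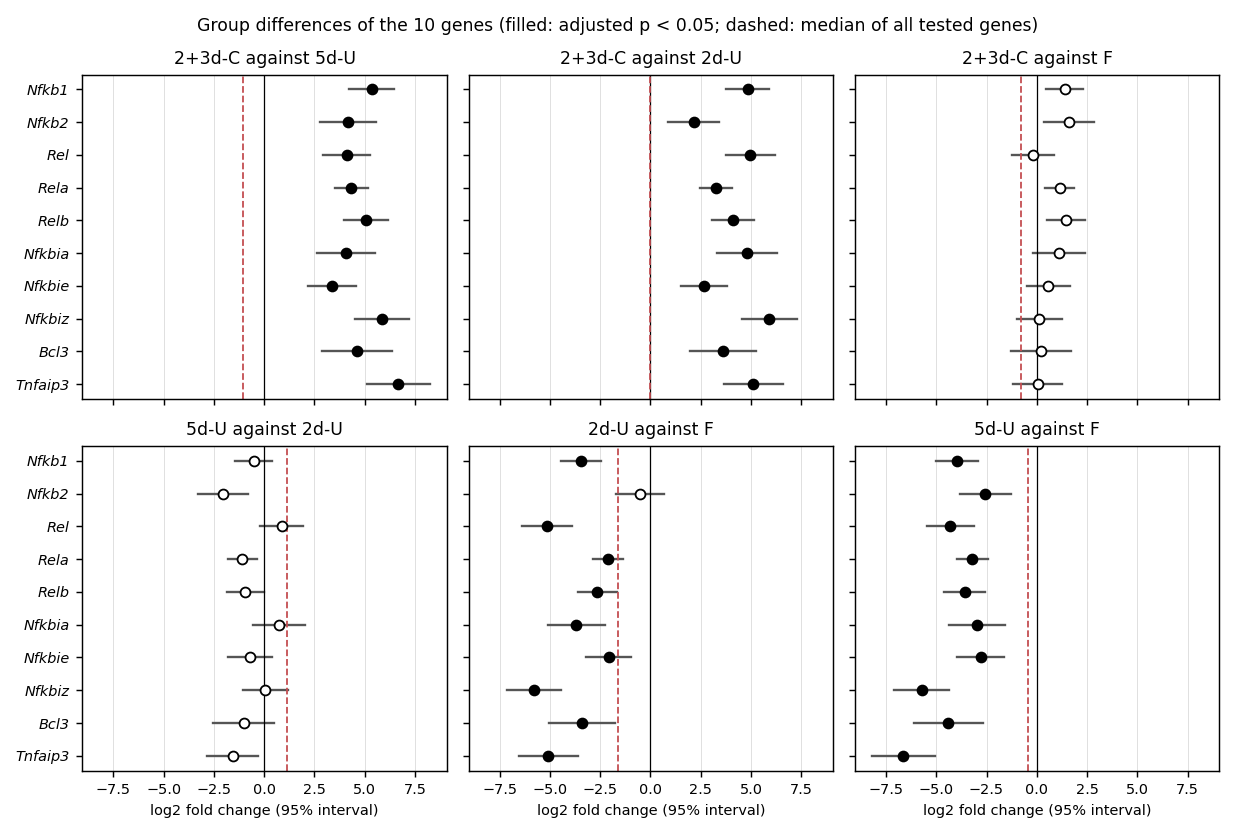
Log2 fold change of each of the 10 genes in the 6 comparisons between groups, as points with 95% intervals, filled where the adjusted p was under 0.05, with the median of all tested genes as a dashed line. All 10 points are filled and above 0 for 2+3d-C against 5d-U and against 2d-U, none is filled for 2+3d-C against F or 5d-U against 2d-U, and 9 and 10 are filled below 0 for 2d-U and 5d-U against F.

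Against F cells, none of the 10 genes was called in either direction by edgeR (adjusted p 0.0573 to 0.971), in a comparison with 1.94% of tested genes called higher and 4.47% lower. These background counts, 438 higher and 1011 lower, depended on single libraries, with 1185 and 8878 without F replicate 1, 26 and 222 without F replicate 4 and 40 and 265 without F replicate 5. DESeq2 called 2 of the 10 higher, Rela (log2 fold change 0.91, adjusted p = 0.0307) and Relb (1.25, 0.0451). At an unadjusted p under 0.05, 4 subunits passed, all higher in 2+3d-C, beside 8.11% of tested genes. The same 4 were higher without overlap of the libraries, beside 8.79% of all tested genes. They were Nfkb2 (1.62 ± 0.58), Relb (1.47 ± 0.44), Nfkb1 (1.38 ± 0.44) and Rela (1.14 ± 0.34), with adjusted p-values of 0.0926, 0.0573, 0.0676 and 0.0592. Relb and Nfkb2 passed the adjusted threshold without 5d-U replicate 1 (adjusted p = 0.0393 and 0.0383), and Relb and Nfkb1 without F replicate 1 (0.0413 and 0.0408). For the other 6 genes the groups overlapped and the 95% intervals held 0: -1.23 to 0.85 for Rel, -0.18 to 2.41 for Nfkbia, -0.50 to 1.67 for Nfkbie, -0.97 to 1.24 for Nfkbiz, -1.27 to 1.70 for Bcl3 and -1.19 to 1.27 for Tnfaip3. These intervals do not show that the groups were alike, since each allows a difference of more than 2-fold. The median of the 10 was 0.85, beside -0.76 over all genes. With libraries scaled by size alone, the calls over all genes moved to 142 higher and 1217 lower, and the sign turned for Nfkbiz, Bcl3 and Tnfaip3. The summed endothelial, fibroadipogenic, smooth muscle or pericyte and immune markers of all 3 compressed libraries lay below those of all 3 F libraries. The hemoglobin sums overlapped (31.2 to 413 RPKM in 2+3d-C, 186 to 853 in F), and so did the myofiber sums. Called lower were 2 of 8 endothelial, 2 of 8 fibroadipogenic, 1 of 8 smooth muscle or pericyte and 5 of 10 immune markers. In these lists 0 were called higher, while 2 of 8 MuSC markers were.

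Time in culture without compression was covered by 5d-U against 2d-U, where none of the 10 genes was called by edgeR (adjusted p 0.0745 to 0.958) and 1.87% of tested genes were called higher and 0.243% lower. DESeq2 called Nfkb2 and Rela lower. At an unadjusted p under 0.05, 4 of the 10 were lower in 5d-U, beside 2.06% of tested genes: Nfkb2 (-2.04 ± 0.59), Tnfaip3 (-1.56 ± 0.60), Rela (-1.08 ± 0.34) and Relb (-0.94 ± 0.44). In the same 4, every 5d-U library lay below every 2d-U library, beside 5.4% of all tested genes. The median of the 10 was -0.82 where that of all genes was 1.13, a background that fell to 0.14 with the 2 groups alone and to 0.45 after subtraction of silent-family reads. Without 5d-U replicate 1, in which Nfkb2 measured 18.6 RPKM against 5.56 and 3.00 in the other 2, the fall of Nfkb2 passed the adjusted threshold (-3.11, adjusted p = 0.00572). Scaling by size alone moved the calls over all genes from 424 higher and 55 lower to 126 and 45, and leaving out single libraries gave from 142 and 11 (without 2d-U replicate 3) to 1239 and 95 (without 2+3d-C replicate 10). Smooth muscle or pericyte (4 of 8), fibroadipogenic (2 of 8) and myofiber markers (2 of 8) were called higher in 5d-U. So were endothelial (1 of 8) and immune markers (1 of 10). No list had a marker called lower, and no hemoglobin or MuSC marker was called.

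Against F, 9 of the 10 genes were called lower in 2d-U and 10 of 10 in 5d-U. 2d-U against F was the comparison with the most calls over all genes, 33.3% lower and 10.6% higher, and in 32.1% of tested genes every 2d-U library lay below every F library, as in 9 of the 10 genes. The largest falls were those of Nfkbiz (-5.78 ± 0.63), Rel (-5.16 ± 0.58) and Tnfaip3 (-5.08 ± 0.68). The exception was Nfkb2, at -0.52 ± 0.57 (95% interval -1.73 to 0.69, adjusted p = 0.465). Markers of other cell types were also called lower in 2d-U than in F. They were immune (10 of 10), endothelial, smooth muscle or pericyte and myofiber (8 of 8 each), hemoglobin (4 of 4) and fibroadipogenic markers (7 of 8). Of 8 MuSC markers, 3 were lower and 1 higher. In 5d-U against F the background was 8.9% lower and 11.6% higher, with 22.8% of tested genes lower in every library, and the 10 log2 fold changes ran from -2.56 (Nfkb2) to -6.64 (Tnfaip3), with no overlap of libraries. In 5d-U too, endothelial and fibroadipogenic (8 of 8 each), hemoglobin (4 of 4) and smooth muscle or pericyte markers (6 of 8) were called lower. So were immune (4 of 10), myofiber (3 of 8) and MuSC markers (3 of 8), with 0 called higher in any list. All 10 genes remained called without any single library. Without the 4 libraries with reads on silent families, which leaves 1 library of F and 1 of 5d-U, 4 of the 10 were called, while the median of the 10 went from -3.77 to -4.86.

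From the highest to the lowest group mean, the order was 2+3d-C, F, 2d-U, 5d-U for 7 of the 10 genes. Nfkbia and Nfkbiz had 5d-U above 2d-U, and Rel had F above 2+3d-C and 5d-U above 2d-U. The step between the high pair of groups (2+3d-C and F) and the low pair was called in every gene but Nfkb2, where F and 2d-U did not differ beyond their spread. Within the high pair and within the low pair edgeR called no step for any of the 10, whereas DESeq2 called Rela and Relb in the first and Nfkb2 and Rela in the second.

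The 5 subunits can also be compared with each other, since RPKM accounts for exon length. Their summed RPKM was 599 to 881 in 2+3d-C, 268 to 310 in F, 67.4 to 103 in 2d-U and 21.6 to 49.0 in 5d-U, with no overlap between any groups. Rela made up 48.4 to 50.2% of the sum in 2+3d-C, 50.4 to 59.8% in F, 38.0 to 48.6% in 2d-U and 43.9 to 68.9% in 5d-U. Nfkb2 held 39.4 to 52.7% at 2d-U, against 17.3 to 20.5% (F), 13.9 to 38.0% (5d-U) and 17.1 to 26.6% (2+3d-C). In 2d-U, Nfkb2 thus took a larger share in every library than in any library of the other groups, and it exceeded its partner Relb by 4.22 to 8.36 times, against 0.735 to 2.04 times in 2+3d-C. The share of Nfkb1 was lowest in 2d-U (2.26 to 3.72%), followed by 5d-U (4.47 to 5.87%), with 6.97 to 12.2% in F and 7.98 to 11.6% in 2+3d-C. Rel gave 1.51 to 3.33% of the sum in F but 0.897 to 0.999% in 2+3d-C, a pair of ranges that did not overlap although the Rel levels did. No test was run on these shares, which are given as values.

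Nfkbia transcript per subunit transcript, the ratio of its RPKM to the subunit sum, was 0.783 to 1.44 for 2d-U, 3.44 to 4.98 for F, 1.79 to 7.75 for 2+3d-C and 2.03 to 11.96 for 5d-U. It was lower in 2d-U than in any other library and spread widest in 5d-U, where replicate 6 had the highest value of all libraries.

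**Figure D3:**
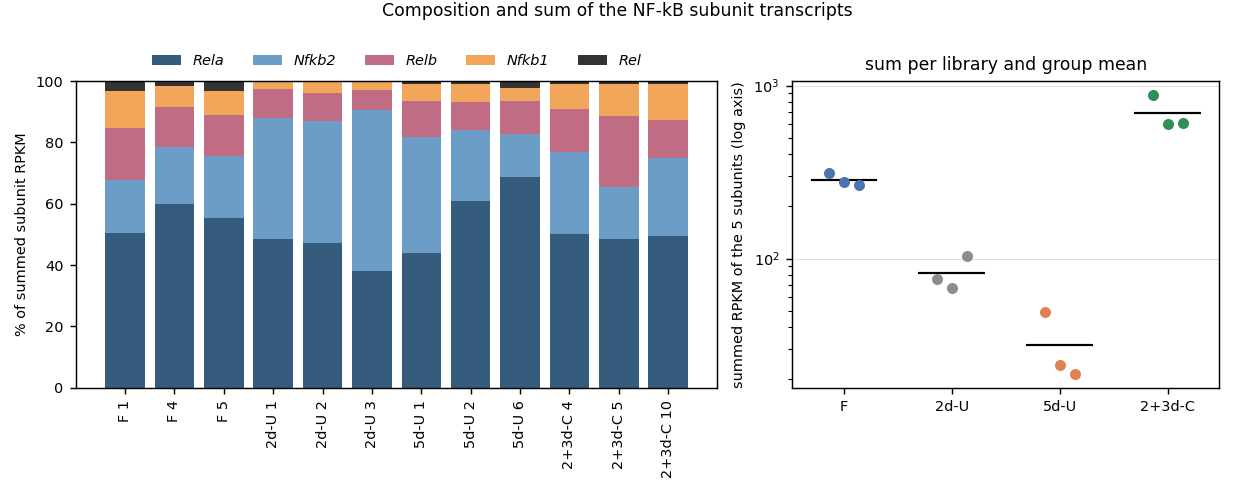
Left, the share of each of the 5 NF-kB subunits in their summed RPKM, as stacked bars for each of the 12 libraries. Right, that sum per library (points, log axis) with the group mean (line). Rela and Nfkb2 make up most of every bar, Nfkb2 most visibly in the 3 2d-U libraries (39.4 to 52.7%), and the sum is highest in 2+3d-C (599 to 881 RPKM).

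The other genes of the pathway were taken from 4 lists (82 genes, of which all but Ccl20 passed the filter on low counts), and their calls are set beside those of all tested genes given above. Of 13 receptors and sensors, 8 were higher and 0 lower in 2+3d-C against 5d-U, with a median log2 fold change of 1.52. Tnfrsf1a, the main receptor for TNF, averaged 9.32 ± 2.75 RPKM (SD, n = 3) for 5d-U, 108 ± 22.1 for F and 198 ± 57.8 for 2+3d-C, a rise of 4.41 ± 0.44 over 5d-U (SE, log2, adjusted p = 1.79e-05). The Toll-like receptors Tlr2 (4.88 ± 0.80) and Tlr6 (4.16 ± 0.83) also rose over 5d-U, from 0.248 and 0.334 RPKM to 7.34 and 5.99. Tnfrsf12a, the receptor for TWEAK and the most abundant of the list, rose by 1.52 ± 0.51 (adjusted p = 0.0450), and it was the only receptor called in 2+3d-C against F (2.43 ± 0.53, adjusted p = 0.0203). Ltbr, a receptor of the slower route, averaged 14.6 ± 3.05 RPKM in 5d-U and 38.1 ± 7.16 in 2+3d-C (1.38 ± 0.42, adjusted p = 0.0299).

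Of 23 adaptors and kinases, 7 were higher and 3 lower in 2+3d-C against 5d-U (median 0.89), and 0 were higher and 1 lower against F. Those with the smallest p against 5d-U were Myd88, the adaptor of Toll-like and IL-1 receptors (3.02 ± 0.46), Birc3, a ubiquitin ligase of the TNF receptor complex and a known NF-kB target (4.44 ± 0.75), and the kinase Ripk1 (2.17 ± 0.44), with adjusted p-values of 0.000400, 0.000897 and 0.00304. Irak1, among the 3 most abundant of the list, rose by 1.36 ± 0.44 (adjusted p = 0.0369). The 3 that fell were named after their values were seen. They were Tab1, a partner of the kinase TAK1, Ikbkg, the regulatory subunit of the IkB kinase, and Irak2. Their log2 fold changes were -3.26 ± 1.09, -3.14 ± 0.70 and -2.25 ± 0.57 (edgeR adjusted p = 0.0447, 0.00541 and 0.0119). Tab1 had only 2 to 241 reads in the 2+3d-C libraries. Irak2 was also the gene that was lower against F (-3.36, adjusted p = 0.00817). The catalytic subunit Ikbkb rose by 1.78 (adjusted p = 0.00628), while Chuk, the other one, was not called (0.80, adjusted p = 0.207). These were likewise named after their values were seen.

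Among 16 other inhibitors of the pathway, 6 were higher and 1 lower in 2+3d-C against 5d-U (median 1.07) and 10 higher and 0 lower against 2d-U. Zfp36, which encodes the mRNA decay factor tristetraprolin, averaged 3.03 ± 0.911 RPKM at 5d-U and 412 ± 273 with compression (7.09 ± 0.64, adjusted p = 9.57e-06), with 297 ± 62.6 in F. Zc3h12a, a ribonuclease that degrades inflammatory mRNAs, rose by 5.72 ± 0.65 and Tnip1, an A20-binding inhibitor, by 5.09 ± 0.53. Nfkbib, which encodes IkBb, averaged 57.5 ± 39.9 RPKM in 5d-U and 485 ± 394 in 2+3d-C (3.08 ± 0.61, adjusted p = 0.00262), and unlike the IkB genes among the 10 it was called higher in 2+3d-C than in F (2.55 ± 0.60, adjusted p = 0.0271). Whether it differed from them was not tested. Rnf11, a partner of A20, was not called (0.85 ± 0.40, adjusted p = 0.118). Against F, 2 of the 16 were higher, Nfkbib and the deubiquitinase gene Otulin, and 1 was lower, Tnip3, of which the last pair was named after its values were seen. Tnip3 was also the gene that fell against 5d-U, listed at 0 reads in every 2+3d-C library and at a mean of 0.253 RPKM in 5d-U.

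Of 29 known target genes tested, 17 were higher and 1 lower in 2+3d-C against 5d-U, with a median of 4.03. The most abundant was the chemokine Cxcl1, with 0.167 to 4.92 RPKM in 5d-U and 1159 to 18883 in 2+3d-C (12.06 ± 1.79, adjusted p = 0.000356). Csf3, which encodes G-CSF, averaged 0.108 ± 0.0961 RPKM for 5d-U, 371 ± 335 for 2+3d-C and 687 ± 345 for F (11.78 ± 1.27 over 5d-U, adjusted p = 3.26e-05). The adhesion molecules Icam1 (7.16 ± 0.87) and Vcam1 (4.53 ± 0.48), the chemokine Ccl2 (5.33 ± 1.25) and the AP-1 gene Junb (3.86 ± 0.52) rose as well. Vcam1 is also a marker of quiescent MuSCs and stood in that list too. The gene that fell was Bcl2l1, an inhibitor of apoptosis (-2.50, adjusted p = 0.00494), named after its value was seen. Against F, 0 of the 29 were higher and 3 lower: Icam1 (-2.60 ± 0.70, adjusted p = 0.0431), Il1b and Il1a, of which Il1a had 0 reads in each 2+3d-C library. Il1b and Il1a were named after their values were seen. In 2d-U against F, 25 of the 29 were lower and 0 higher. Several of these genes are also expressed by endothelial and immune cells, whose markers were high in F. In 2+3d-C, endothelial markers summed to 60.8 to 119 RPKM and immune markers to 24.8 to 81.6.

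**Figure D4:**
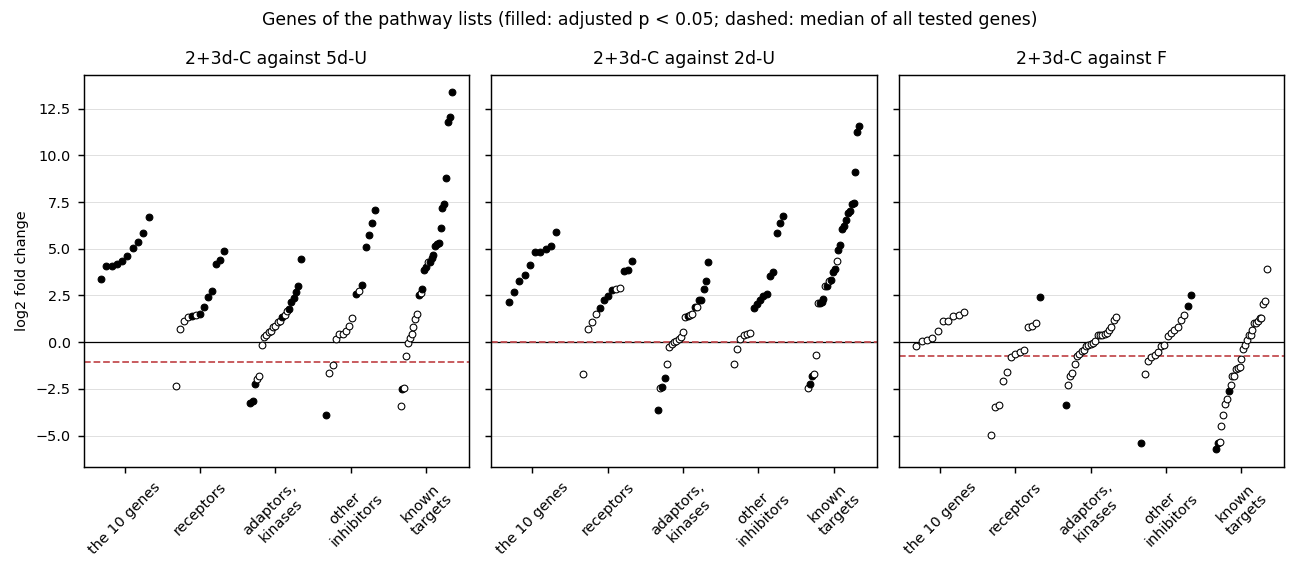
Log2 fold change of the 10 genes and of the tested genes of the 4 pathway lists in 2+3d-C against 5d-U, 2d-U and F, each point a gene, sorted within its list and filled where the adjusted p was under 0.05, with the median of all tested genes as a dashed line. Genes with 3 or fewer reads in each library of a group are drawn at the limit computed against 3 reads. All 10 genes are filled above 0 in the first 2 panels, as are 17 and 19 of the 29 known targets, and none of the 10 is filled against F.

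The genes whose pattern over the 12 libraries came closest to that of a member were found among 10636 tested genes outside the lists with a mean of at least 5 CPM (counts scaled to library size), by the root-mean-square distance of log2 CPM after each gene was centred on its mean. A distance of 0.3 means that the libraries of both genes typically differed by 0.3 log2 units around their means, whereas the 10 genes themselves varied around their means by 1.48 (Nfkbie) to 3.02 (Tnfaip3). The closest single gene was Spry1 for Relb (0.323), followed by Slc8b1 for Rela (0.347) and Sema6a for Rel (0.349). Bag3, which encodes a cochaperone, was among the 3 nearest genes of both Rela (0.458) and Relb (0.453), and Myc was second for Relb (0.432). Mvp was nearest to Nfkb1 (0.411), Nmi to Nfkbia (0.385), Gm17494 to Nfkbie (0.416), Ltbp4 to Tnfaip3 (0.566), Pde4b to Nfkbiz (0.579), Cxcl16 to Bcl3 (0.592) and Zfp703 to Nfkb2 (0.593). Among the members themselves, Nfkb1 and Relb were the closest pair (0.467), just ahead of Rela and Relb (0.471), while Bcl3 lay farthest from its nearest fellow member (Nfkbia, 0.934). The 12 libraries share their scaling, and these distances describe likeness over 4 groups and carry no test.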

How the data were processed

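The data were mouse RNA-seq counts from 12 libraries, 3 per group. The authors amplified cDNA with SMART-seq v4, ran the nf-core RNA-seq pipeline on single-end reads (genome build mm10) and, per the file headers, counted them with featureCounts 1.6.4 over the exons of GENCODE vM23, ignoring strand. The deposited counts were not normalized, and a merged table held the same values.

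From these counts, edgeR 4.0.16 (R 4.3.3) was run on all 12 libraries with TMM scaling, the 22635 genes that passed filterByExpr, a coefficient per group and the two-sided quasi-likelihood test. The p-values were adjusted over all tested genes by the Benjamini-Hochberg method, and genes under 0.05 were called. RPKM used the files' exon lengths and library sizes after TMM, and distances between genes used log2 CPM with 2 as prior count. A count of 3 was taken as the limit of detection, for counting error only, since PCR reads are not independent molecules.

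The 10 genes, the lists of pathway genes and markers and the tests were chosen with earlier results of these data known. Of each pathway list, the 3 genes with the highest mean RPKM and the 3 with the smallest p in 2+3d-C against 5d-U were named, and for each of the 10 genes the tested genes of most similar pattern. Other genes of the pathway lists are marked as named after their values were seen. Some single marker genes were also named after their values were seen. The paper states that cells of a sort were divided at random among conditions, but which libraries share a sort is not given. Replicate numbers are shared by some groups and were not used for pairing. Deviations of same-numbered libraries from their group means had r from -0.42 to 0.032. With means of 3 libraries, taken over all tested genes, this cannot show whether they share a sort. The fit was tested on simulated data. Alternatives were DESeq2 1.42.0, no TMM, no filter, the 2 groups alone, a replicate block, subtraction of silent-family reads and each library left out, with the 4 libraries with silent-family reads left out together added after seeing the data.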

Additional observations from a re-analysis of the deposited data

How the results depend on the processing

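Over 19 alternatives (12 of them a library left out), the 10 calls in 2+3d-C against 5d-U remained, and calls over the 10 genes stayed at 7 to 10 in 2+3d-C against 2d-U and at 6 to 9 in 2d-U against F. The number called in 2+3d-C against F, 0 as reported, was 1 with no filter on low counts, 2 with DESeq2 and 0 to 2 with a library left out. For 5d-U against 2d-U, also 0, it was 2 with no filter, 2 with DESeq2, 1 with the libraries of the 2 groups alone and 0 to 1 with a library left out. For 5d-U against F, 10 as reported, it was 4 without the 4 libraries with silent-family reads, an alternative chosen after seeing the data that leaves 1 library in each of those groups. The other causes were not tested.

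No gene with an adjusted p under 0.05 changed sign. Of those not called, these did. In 2+3d-C against F, Rel (-0.19) was 0.18 with the replicate block and -0.48 to -0.041 with a library left out. Nfkbiz (0.14) was -0.32 without TMM, -0.11 with the 2 groups alone, -0.0084 after subtraction of silent-family reads, -0.090 with DESeq2, -0.032 without the 4 libraries and -0.37 to 0.38 with a library left out. Bcl3 (0.21) was -0.42, -0.14, -0.0043 and -0.055 under the first 4 of these and -0.42 to 0.62 with a library left out. Tnfaip3 (0.040) was -0.33, -0.16, -0.081 and -0.17 under the same 4, -0.40 with the replicate block, -0.20 without the 4 libraries and -0.59 to 0.52 with a library left out. In 5d-U against 2d-U, Nfkbia (0.72) was -0.92 without the 4 libraries, and Nfkbiz (0.059) was -0.23 without TMM, -0.23 with no filter, -0.18 with the 2 groups alone, -0.12 after subtraction, -0.10 with DESeq2, -0.66 without the 4 libraries and -0.74 to 0.36 with a library left out.

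The replicate block, for numbers that the libraries only share, left 10 calls in 2+3d-C against 5d-U, 7 against 2d-U (Nfkb2, Rela and Bcl3 lost, adjusted p = 0.376, 0.0531 and 0.226) and 0 against F, 6 in 2d-U against F (9 without it), 9 in 5d-U against F and 0 in 5d-U against 2d-U. The median of all genes moved too. In 2+3d-C against 5d-U it shifted by -0.16 with size scaling alone, -0.97 with no filter, 0.85 with the 2 groups alone, 0.82 after subtraction and 1.05 without the 4 libraries. In 5d-U against 2d-U the shifts were -0.48, 0.89, -0.99, -0.68 and -0.81, and in 2+3d-C against F -0.48, -2.37, 0.39, 0.47 and 0.81, in the same order. The lowest counts behind the tests were 31 reads (Rel in 2d-U), 34 (Bcl3 in 5d-U) and 38 (Tnfaip3 in 5d-U).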
